A study of Mus musculus with 6 samples.

Results

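The genes described here are 42 genes of the heat shock and chaperonin system, taken by symbol from a list ordered by role: 2 heat shock factors, 2 cytosolic HSP90 genes, 6 HSP90 co-chaperones, 8 genes of the HSP70 and HSP110 families, 5 HSP40 genes, 2 BAG genes, 3 small heat shock protein genes, 8 subunits of the CCT chaperonin and, for contrast, 6 mitochondrial chaperone and protease genes. All 42 were found among the 55401 genes of the expression table by matching Ensembl gene identifiers to symbols. RNA-seq was performed on mouse cultures labelled as female germline stem cells (FGSCs), with 3 untreated control libraries and 3 libraries from cultures given 1 μM metformin, an anti-diabetic biguanide, for 24 h. Both groups carry the same labels otherwise: strain C57BL/6, more than 20 passages, no genotype beyond the strain, and growth on growth-arrested STO cells, a mouse fibroblast feeder line. The labels do not say whether the 3 libraries of a group came from separate cultures, so p-values measure only the spread between these libraries, and a line kept for many passages on feeders may differ from germ cells in an ovary.

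Heat shock proteins keep other proteins folded. HSP70 binds exposed stretches of a client with help from HSP40 proteins, which deliver clients, and from BAG and HSP110 proteins, which release the nucleotide, while HSP90 with its co-chaperones matures kinases and steroid receptors, and CCT folds actin and tubulin inside a closed ring. When unfolded proteins build up, the factor HSF1 is set free from chaperones, binds repeats of the unit GAA in alternating orientation (heat shock elements) and raises the inducible genes, among them Hspa1a, Hspa1b, Hsph1, Dnajb1, Hsp90aa1, Hspb1 and Bag3.

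The 5 members with at least 3 alternating units GAA and TTC, each 2 bases from the next, in their promoter window are shown because they carry the motif through which HSF1 acts. The sequences are from RefSeq (GRCm38.p6), 5′ to 3′ on the strand of the gene, with the units in capitals. Chordc1 had 5 units at chr9:18292260-18292288 (plus strand), from 4 bases before its start site into the transcribed part. Hspd1 and Hspe1, which lie head to head, shared 1 element of 4 units at chr1:55088053-55088082, read on the minus strand for Hspd1 and on the plus strand for Hspe1. Dnajb6 had 3 units upstream of its start at chr5:29735846-29735870 (plus strand) and Hsph1 had 3 units within its transcribed part at chr5:149636282-149636306 (minus strand). The near-identical genes Hspa1a (chr17:34972247-34972266, minus strand) and Hspa1b (chr17:34959329-34959348, minus strand) are shown beside them, each with 2 units in the same 20 bases.
Chordc1: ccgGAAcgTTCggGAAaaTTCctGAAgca
Hspd1: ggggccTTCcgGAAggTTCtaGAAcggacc
Hspe1: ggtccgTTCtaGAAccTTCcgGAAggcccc
Dnajb6: ctccgaGAAtcTTCcgGAAcgctag
Hsph1: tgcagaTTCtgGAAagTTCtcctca
Hspa1a: ctgctgGAAgaTTCctggcc
Hspa1b: ctgctgGAAgaTTCctggcc

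A promoter window of 300 bases, 250 before and 50 after the start site, was found for 35 of the 42 members. At least 3 units were present in 5 of these 35 (14.3%), against 179 of 27025 genes (0.662%). At least 2 units were present in 18 members (51.4%), against 17.0% of all genes. Only 8 genes in all had 4 or more units in a row, and 3 of them were Chordc1, Hspd1 and Hspe1. In these counts Hspd1 and Hspe1 were each counted for the element that they share. Both strands were searched by letting a run begin with either unit, and no window was entered for Hsp90aa1, Hsp90ab1, Hspa8, Hspa9, Cct4, Cryab and Hsf1. RefSeq gives Hspd1 another start site, 95 bases past the start of Hspe1, whose window held no such run. A match is a description of the sequence and not a bound site. The lack of a match does not mean that an element is missing, since inexact units and bases outside the window were not searched.

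**Figure D1:**
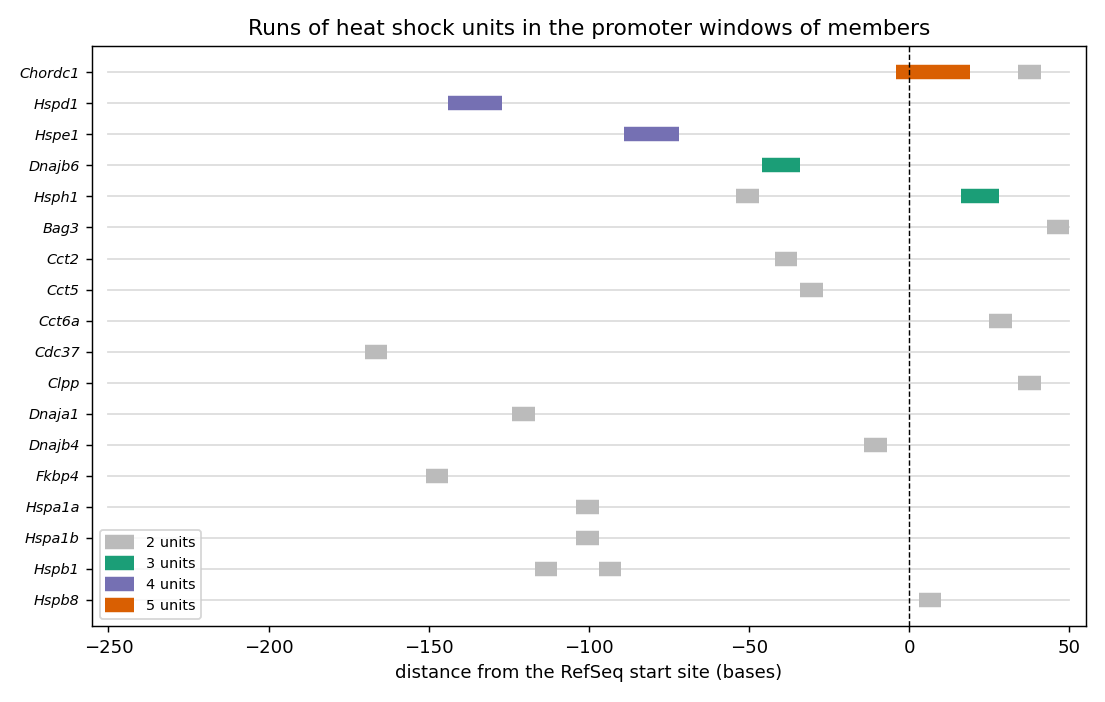
Position of runs of alternating GAA and TTC units in the promoter windows of the 18 members that had at least 2 units, with distance from the RefSeq start site in bases on the x axis and 1 window per gene. Coloured blocks mark runs by their number of units: Chordc1 had 5, Hspd1 and Hspe1 had 4, Dnajb6 and Hsph1 had 3, and the other members had 2.

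Depth was alike in all libraries, at an estimated 13.4 to 14.0 × 10⁶ fragments, worked out from the steps between low values. The values are FPKM (fragments per kilobase of transcript, scaled to the mapped total), which allow levels to be compared between genes per length. In the RNA of these libraries the cell type label did not hold up against its markers. The study names germline markers that it reports as expressed in its cultured line by RT-PCR, with MVH, the protein of Ddx4, seen by immunofluorescence. Of these 6 genes, Pou5f1, Dppa3 and Dazl were at 0 FPKM in every library, and Ddx4, Prdm1 and Ifitm3 averaged 0.0233, 0.0167 and 0.662 FPKM. Why the RNA-seq and those assays differ was not tested. The 10 fibroblast markers for the feeders summed to 0.910, 0.980 and 1.04 FPKM in control libraries and to 0.830, 0.840 and 0.830 FPKM in metformin libraries, with Lum at 0 and none of the 10 above 0.275 FPKM on average. By contrast, all 10 blood cell markers were present at 7.03 to 139 FPKM, summing to 599 to 601 FPKM in control and 604 to 613 FPKM in metformin libraries, and 0 of the 10 passed an adjusted p of 0.05. The cultures are therefore called by their label only, and in such bulk RNA fewer cells of a type and less RNA per cell cannot be told apart.

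Levels ran from among the highest of the table to near 0, with 31 of the 42 members at a mean of at least 10 FPKM. The heat-inducible Hspa1a and Hspa1b and the 3 small heat shock genes were lowest, and Hsf2, Dnajb4, Hspa14, Hspa4l, Hsf1 and Hspa2 lay between 1.37 and 7.88 FPKM. Hsp90ab1, the constitutive cytosolic HSP90, ranked 7 in the whole table by mean level, at 2232 FPKM, the mitochondrial chaperonin Hspd1 ranked 24 at 1080.0 FPKM and the inducible Hsp90aa1 ranked 28 at 909 FPKM. Together the 42 members made up 2.56 to 2.63% of all FPKM in each library. At the other end, 5 members averaged under 1 FPKM (Hspa1a, Hspa1b, Hspb1, Hspb8 and Cryab) and were left out of the test, so that 37 of 42 members were tested among 10661 genes.

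**Figure D2:**
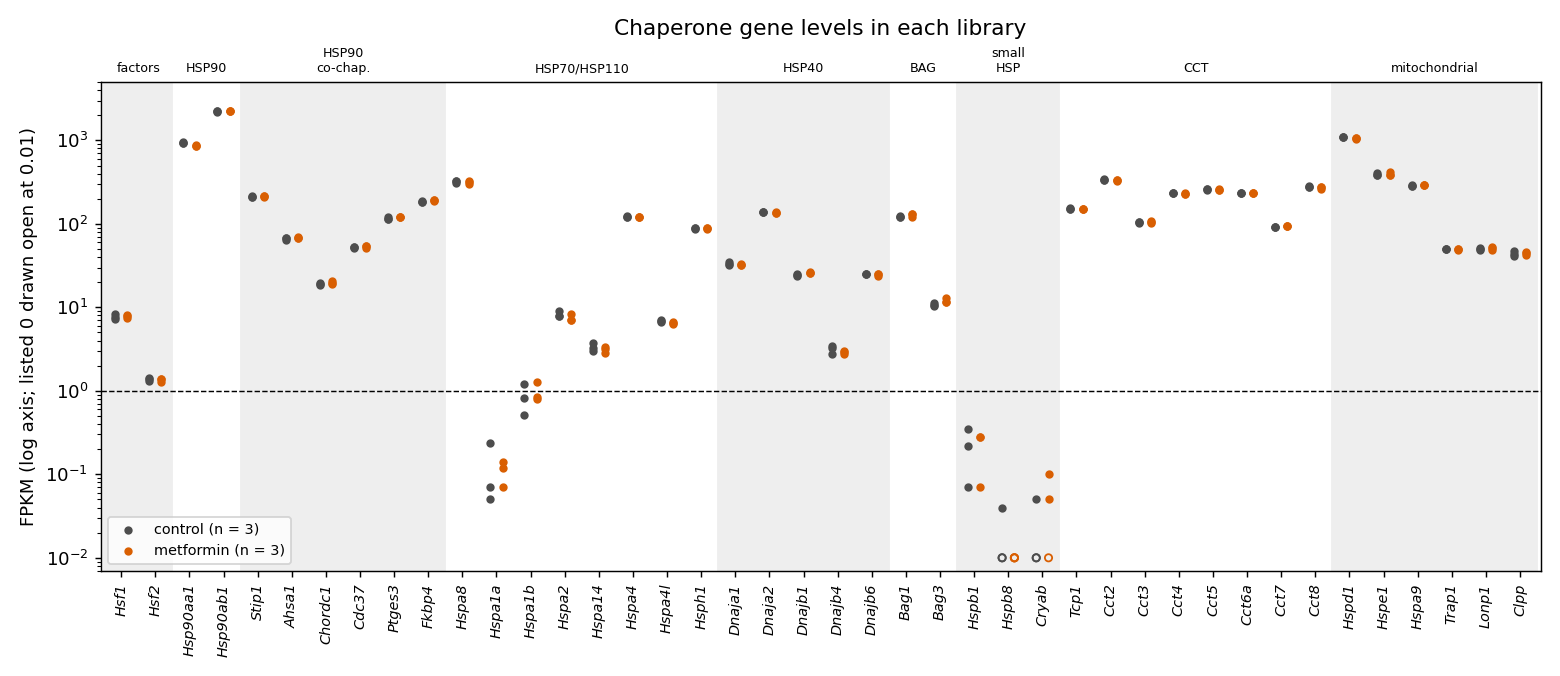
FPKM of the 42 members in each of the 6 libraries on a log axis, grouped by role, with control libraries in grey, metformin libraries in orange and values of 0 drawn open at 0.01. Hsp90ab1, Hspd1 and Hsp90aa1 stand highest at 2232, 1080.0 and 909 FPKM on average, and the 5 members under the dashed line at 1 FPKM were not tested.

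No member passed the test at this dose and time. With limma and Benjamini-Hochberg adjustment over all 10661 genes, 0 of 37 members had an adjusted p under 0.05, against 0.0281% of all tested genes, which was 3 genes. At an unadjusted p under 0.05 there were 5 members (13.5%), against 10.8% of all genes. When only genes averaging at least 10 FPKM were tested, the shares were 16.1% of members and 14.2% of genes, again with 5 members. These were Dnajb1, Ptges3, Bag1 and Bag3 on the higher side with metformin (10.8% of members, 6.03% of all genes) and Hsp90aa1 on the lower side (2.70% of members, 4.81% of all genes). The median difference of the 36 cytosolic members, of which 31 were tested, was -0.0086 on the log2(FPKM + 1) scale, beside 0.0041 for all tested genes, with 14 above and 17 below 0. On the same scale the 6 mitochondrial members had a median of 0.0087, with 4 above and 2 below 0.

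The intervals give the size of change that these libraries leave room for. The 95% interval of the log2 difference lay inside ±0.1 for 20 of the 37 tested members, inside ±0.2 for 33 and inside ±0.3 for 36. The median SD among libraries of a group was 0.030 log2 units for members and 0.060 for all tested genes. These sets were not matched for level, since 31 of the 37 tested members averaged at least 10 FPKM, against 5096 of the 10661 tested genes. Across all genes the 1st and 99th percentiles of the difference were -0.32 and 0.35, and the members ranged from -0.14 for Hspa2 to 0.16 for Bag3. The member with the interval reaching beyond ±0.3 was Hspa2.

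**Figure D3:**
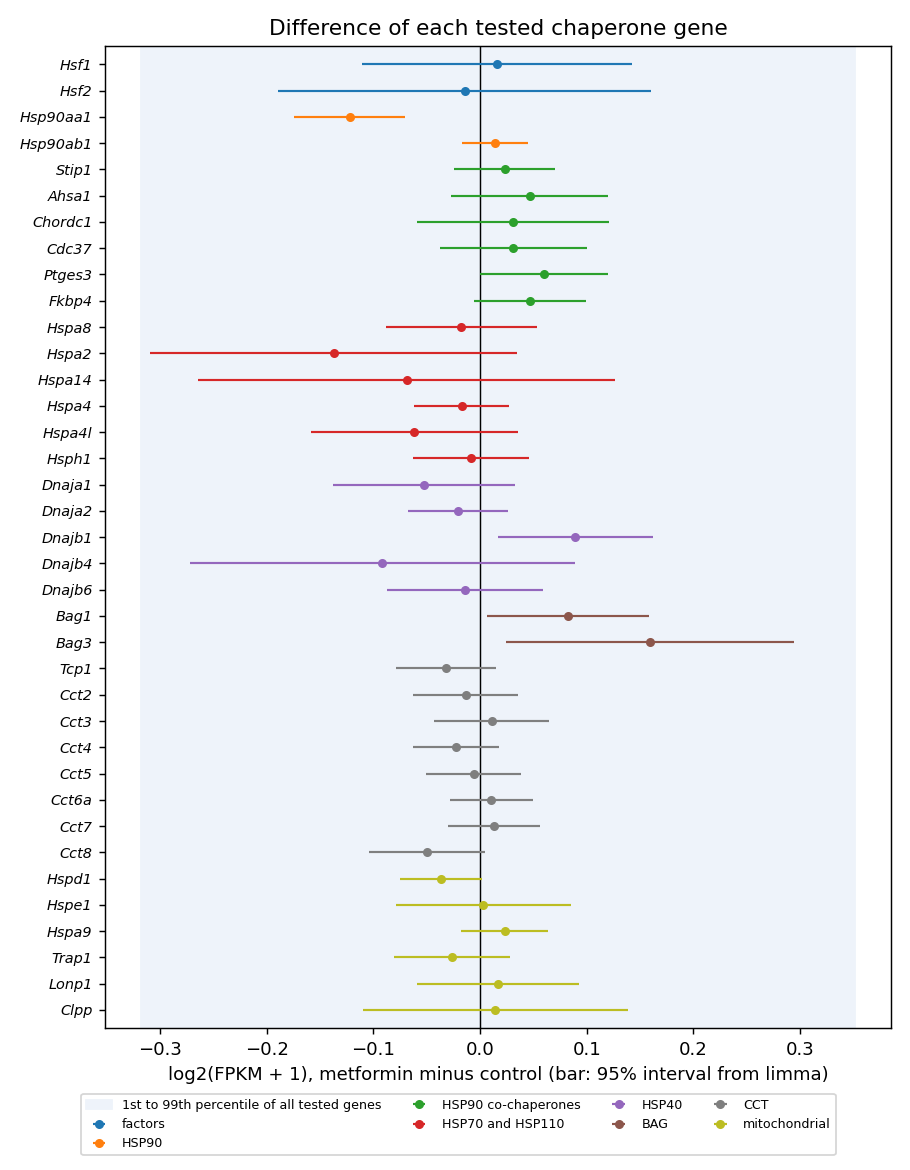
Difference between metformin and control in log2(FPKM + 1) for the 37 tested members, coloured by role, with points for the limma estimate and bars for its 95% interval. The pale band spans the 1st to 99th percentile of all tested genes, -0.32 to 0.35, and every member's estimate lies inside it, Hsp90aa1 at -0.12 and Bag3 at 0.16.

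Groups without any overlap between the 3 control and 3 metformin libraries were seen in 11 members (29.7%), against 17.0% of all tested genes. Among genes averaging at least 10 FPKM it was 11 of 31 members (35.5%), against 21.3% of genes. With metformin, 6 members were higher in every library (16.2%, against 8.89% of all genes) and 5 were lower in every library (13.5%, against 8.10%). These small separations depended on how the libraries were scaled. Of the 11, Hsp90aa1, Dnajb1, Bag3 and Tcp1 stayed separate under all 4 scalings compared, and Hsp90ab1 and Fkbp4 only with FPKM as deposited. Members outside the 11 became separate under other scalings, Hspa4 and Trap1 under 2 of the 4 and Dnaja2 and Hspa4l under 1.

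Of the heat shock factors, Hsf1, the main activator of the heat shock response, was at 8.34, 7.72 and 7.30 FPKM in control and at 8.11, 7.55 and 7.97 FPKM in metformin libraries. The groups overlapped, with control libraries at both ends of the range. Its log2 difference was 0.016, with a 95% interval of -0.11 to 0.14 (adjusted p = 0.941, limma with Benjamini-Hochberg adjustment), and its direction turned to -0.024 without control library 3 and to -0.0031 without metformin library 1. Hsf2, a factor linked to development and gametogenesis, lay between 1.28 and 1.41 FPKM in all libraries.

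The HSP90 genes held the member with the lowest p, Hsp90aa1, although the estimates of Bag3 and Hspa2 were further from 0. Hsp90aa1 (chr12:110690605-110702728 in the file, minus strand) was at 941, 969 and 931 FPKM in control and at 854, 888 and 868 FPKM in metformin libraries. Every metformin library was below every control library, with means of 947 ± 19.8 and 870.0 ± 16.8 FPKM (SD, n = 3) and a ratio of means of 0.919. The log2 difference was -0.12 with a 95% interval of -0.17 to -0.070, which ranked 29 among all 10661 genes by p, yet the adjusted p was 0.283 (limma, Benjamini-Hochberg). Over 14 alternative settings the difference ranged from -0.14 to -0.11 and the adjusted p from 0.151 to 0.482.

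Hsp90ab1, by contrast, was at 2225, 2225 and 2213 FPKM in control and at 2229, 2259.9 and 2239.9 FPKM in metformin libraries. Each metformin library was above each control library, but only by a log2 difference of 0.014 (95% interval -0.017 to 0.045, adjusted p = 0.738, limma with Benjamini-Hochberg), which was 0 after quantile normalization. The ratio of Hsp90aa1 to Hsp90ab1 within a library was 0.423, 0.436 and 0.421 in control and 0.383, 0.393 and 0.387 in metformin libraries. This ratio, which does not depend on library scaling, did not overlap between groups, and an exact permutation test of 3 against 3 libraries cannot give a two-sided p below 0.1. HSP90 genes have processed pseudogenes, and how reads shared with them were counted is not given in the sources used here.

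All 6 HSP90 co-chaperones were tested, and none passed. Ptges3 (p23), which stabilises the closed HSP90 dimer, was at 114, 116 and 121 FPKM in control and at 122, 122 and 121 FPKM in metformin libraries. Fkbp4, a peptidyl-prolyl isomerase of steroid receptor complexes, was at 184, 181 and 189.5 FPKM and at 189.9, 191 and 191 FPKM, respectively. In both genes the metformin libraries lay just above the highest control library, with log2 differences of 0.060 (95% interval 0.00012 to 0.12) and 0.047 (-0.0053 to 0.0997) and limma Benjamini-Hochberg adjusted p of 0.460 and 0.496. Overlapping groups were found for Stip1, the HSP70-HSP90 adaptor, Ahsa1, the activator of the HSP90 ATPase, Chordc1, an HSP90-binding protein, and Cdc37, the kinase adaptor, with log2 differences of 0.023, 0.047, 0.031 and 0.031. All 6 estimates were above 0, with a median of 0.039, although that of Stip1 was below 0 after quantile normalization and that of Chordc1 was below 0 without metformin library 2.

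The HSP70 and HSP110 genes showed the widest span of levels. Constitutive Hspa8 (HSC70) was at 322, 325 and 312 FPKM in control and at 303, 320.5 and 324 FPKM in metformin libraries. Hsph1 (HSP110), a heat-inducible exchange factor with a 3-unit element, was at 88.9, 87.3 and 89.0 FPKM and at 85.9, 88.5 and 89.3 FPKM, respectively. In both genes metformin library 1 was the lowest of all libraries and the groups overlapped. The log2 differences were -0.018 (95% interval -0.088 to 0.053) for Hspa8 and -0.0086 (-0.063 to 0.046) for Hsph1, and both were above 0 without metformin library 1.

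The exchange factors Hspa4 and Hspa4l averaged 122 and 6.68 FPKM, with log2 differences of -0.017 and -0.062. Hspa2, an HSP70 best known from male germ cells, was at 7.90, 7.95 and 9.06 FPKM in control and at 8.25, 7.15 and 6.99 FPKM in metformin libraries. Its log2 difference of -0.14 had the widest reach downwards of any member, with a 95% interval of -0.31 to 0.035, and control library 3 stood above the other libraries. Hspa14, a ribosome-associated HSP70, was listed at 3.22 FPKM on average (log2 difference -0.069), but its row lies wholly inside an unnamed row on the same strand (ENSMUSG00000109865, 30.4 FPKM on average, log2 difference -0.040), so its level is uncertain. None of the 6 tested genes of these families passed the test, and none had separate groups with FPKM as deposited. Hspa4 had separate groups after rescaling to the same sum, and Hspa4 and Hspa4l after quantile normalization. All 6 estimates were below 0 under the 4 scalings compared, although that of Hspa14 was above 0 without control library 2. After rescaling to the same sum Hspa1b also passed the filter on level, with an estimate above 0 (0.17).

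The inducible Hspa1a and Hspa1b were barely present. Hspa1a was at 0.05, 0.07 and 0.24 FPKM in control and at 0.14, 0.12 and 0.07 FPKM in metformin libraries, which is about 2 to 10 fragments per library. Hspa1b was at 0.51, 1.22 and 0.82 FPKM and at 0.84, 1.28 and 0.80 FPKM, or about 19 to 50 fragments. Both genes overlapped widely between groups, and no difference was detectable at this depth. Since the copies are near-identical and reads can fall to either, they were also added up, giving 0.56, 1.29 and 1.06 FPKM in control and 0.98, 1.40 and 0.87 FPKM in metformin libraries, with a log2 difference of 0.091 (95% interval -0.30 to 0.48, limma Benjamini-Hochberg adjusted p = 0.885).

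Small heat shock proteins, which hold unfolded proteins without ATP, were nearly absent. Hspb1 (HSP25 in mice) was at 0.22, 0.07 and 0.35 FPKM in control and at 0.28, 0.07 and 0.28 FPKM in metformin libraries, about 1 to 5 fragments each. Cryab was listed at 0.05, 0 and 0 FPKM and at 0.05, 0 and 0.10 FPKM, and Hspb8, the partner of BAG3, at 0.04 FPKM in control library 1 and at 0 in the other libraries. A count of 0 allows up to 3 fragments, which is 0.110 to 0.115 FPKM for Hspb8 and 0.181 to 0.189 FPKM for Cryab, counting error only. Hspb1 and Hspb8 had 2-unit elements in their promoter windows, as had Hspa1a and Hspa1b.

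Among the HSP40 genes Dnajb1, a heat-inducible partner of HSP70, was at 23.8, 24.5 and 25.2 FPKM in control and at 26.5, 25.7 and 26.1 FPKM in metformin libraries. The lowest metformin library lay above the highest control library, with means of 24.5 ± 0.690 and 26.1 ± 0.420 FPKM (SD, n = 3). The log2 difference was 0.089 (95% interval 0.017 to 0.16), with an adjusted p of 0.390 (limma, Benjamini-Hochberg). Dnaja1 and Dnaja2, the farnesylated cytosolic HSP40 proteins, averaged 33.0 and 137 FPKM with log2 differences of -0.053 and -0.021, Dnajb6, a suppressor of aggregation, 24.8 FPKM and -0.014, and Dnajb4 3.02 FPKM and -0.092, all with overlapping groups in FPKM as deposited. Without control library 1 the estimate of Dnajb4 was -0.16 with separate groups, and Dnaja2 had separate groups after quantile normalization. Dnaja1 shares 608 bases with Smu1 on the opposite strand (49.7 FPKM), and whether counting used strand is not given in the sources used here.

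Bag3, the heat-inducible exchange factor that directs clients to selective autophagy, had the highest estimate of the members. It was at 11.2, 10.2 and 10.6 FPKM in control and at 13.1, 11.7 and 11.5 FPKM in metformin libraries, with metformin library 1 standing above the rest and no overlap between groups. The means were 10.7 ± 0.490 and 12.1 ± 0.900 FPKM (SD, n = 3) and the log2 difference was 0.16 (95% interval 0.024 to 0.29), with an adjusted p of 0.403 by limma with Benjamini-Hochberg adjustment. Without metformin library 1 it was 0.10. Bag1, which links HSP70 to the proteasome, was at 119, 122 and 123 FPKM and at 131, 132 and 123 FPKM, respectively. Metformin library 3 was below control library 3, so the groups overlapped, with a log2 difference of 0.082 (95% interval 0.0065 to 0.16) and an adjusted p of 0.432 (limma, Benjamini-Hochberg).

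**Figure D4:**
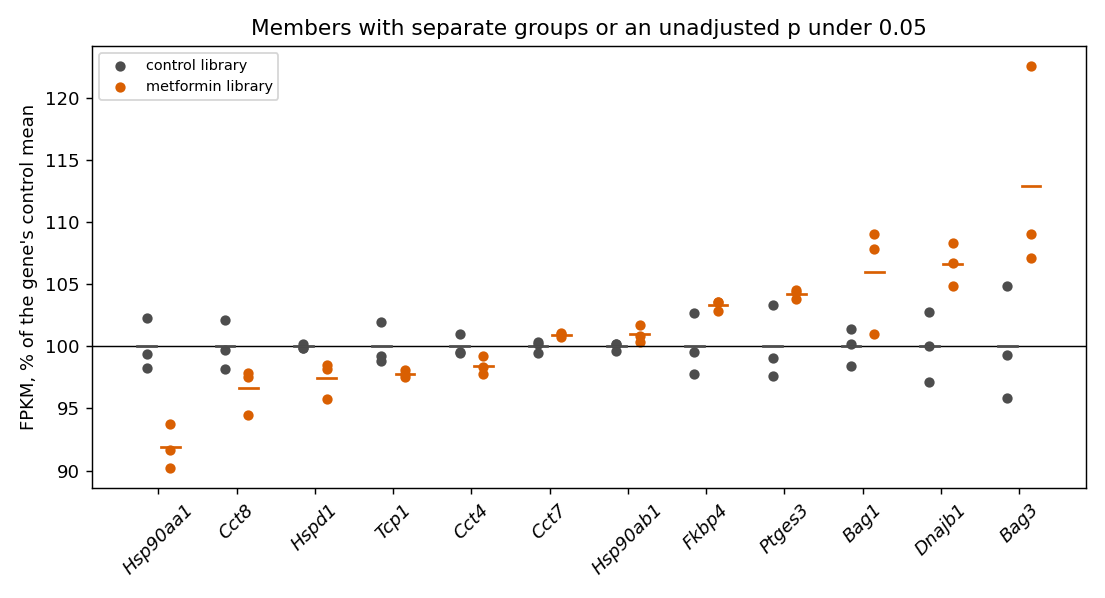
FPKM in each library as a percentage of the gene's control mean, for the 11 members whose groups did not overlap and for Bag1, with bars at the group means, control in grey and metformin in orange. The metformin libraries of Hsp90aa1 sit lowest, at a ratio of means of 0.919, and those of Bag3 highest, at a ratio of 1.13, while the metformin libraries of Cct7 and Hsp90ab1 lie just above their controls.

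The 8 subunits of CCT, which are present in equal numbers in the complex, did not have equal transcript levels. Their means per length ran from Cct2 (334 FPKM) through Cct8 (276), Cct5 (259), Cct6a (234), Cct4 (232), Tcp1 (152) and Cct3 (104) to Cct7 (93.0 FPKM). Of neighbours in this order, Cct6a and Cct4 overlapped across the 6 libraries and the other pairs did not. The sum of the 8 was 1659.6 to 1709.4 FPKM per library, and the groups overlapped in it.

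With metformin, the CCT subunits differed from control by small amounts in either direction, 3 above and 5 below 0, and 0 passed the test. Cct8 was at 275, 286 and 279.8 FPKM in control and at 265, 274 and 274 FPKM in metformin libraries, the widest difference of the 8 (log2 -0.050, 95% interval -0.10 to 0.0046, limma Benjamini-Hochberg adjusted p = 0.492). Tcp1, the alpha subunit, was at 152, 156 and 151 FPKM and at 149.9, 150.3 and 149 FPKM, respectively. Cct4 was at 233, 236 and 233 FPKM in control and at 230.2, 232 and 229 FPKM in metformin libraries. In these 3 genes each metformin library was below each control library. Cct7 went the other way, from 92.8, 92.1 and 92.9 FPKM in control to 93.5, 93.6 and 93.3 FPKM in metformin libraries, a log2 difference of 0.013. The log2 differences of Tcp1 and Cct4 were -0.032 and -0.023, and those of Cct2, Cct3, Cct5 and Cct6a, whose groups overlapped, lay between -0.014 and 0.011. Tcp1 shares 645 bases with Mrpl18 on the opposite strand (108 FPKM), so reads from the genes cannot be told apart there if counting ignored strand.

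The mitochondrial members were included for contrast. Hspd1 (HSP60) was at 1096, 1093 and 1092 FPKM in control and at 1048, 1074 and 1077 FPKM in metformin libraries. Every metformin library was below every control library, by a log2 difference of -0.037 (95% interval -0.075 to 0.0015, adjusted p = 0.472, limma with Benjamini-Hochberg). Its partner Hspe1 (HSP10), which caps the HSP60 ring, was at 384, 403 and 388 FPKM and at 413, 384 and 381 FPKM, with metformin library 1 the highest of all and a log2 difference of 0.0030, which was below 0 under 5 alternative settings. The ratio of Hspe1 to Hspd1 in a library was 0.350, 0.369 and 0.355 in control and 0.394, 0.358 and 0.353 in metformin libraries, so that the groups overlapped. The genes share 112 bases at their starts on opposite strands. Hspa9 (mortalin), Trap1, the mitochondrial HSP90, and the matrix proteases Lonp1 and Clpp had log2 differences of 0.023, -0.026, 0.017 and 0.014, all with overlapping groups in FPKM as deposited.

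The members with a match to the heat shock units did not stand on one side. Members without a match are not known to lack an element, since only exact units in the promoter window were searched. Of the 5 with at least 3 units, 2 had estimates above and 3 below 0, with Hspd1 and Hspe1 each counted for their shared element. The 5 had a median log2 difference of -0.0086 and a range of -0.037 (Hspd1) to 0.031 (Chordc1). The 26 tested members with a window and fewer units had a median of 0.0023 and a range of -0.14 to 0.16, 13 above and 13 below 0. For at least 2 units the split was 7 above and 7 below 0. Of the inducible genes named for HSF1, Dnajb1 and Bag3 had higher and Hsp90aa1 lower metformin libraries, and Hsph1 overlapped between groups. Hspa1a, Hspa1b and Hspb1 were too low to test with FPKM as deposited.

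Other genes of the pathway also had no adjusted p under 0.05. Their shares at an unadjusted p under 0.05 (limma) rest on few genes, in lists not matched for level to all tested genes. Among all genes averaging at least 10 FPKM that share was 14.2%. Of 39 genes in a list of other, mainly but not only cytosolic, chaperones and related genes, 34 were tested. By limma with Benjamini-Hochberg adjustment 0 of the 34 passed an adjusted p of 0.05 (lowest 0.346). Their estimates were above 0 in 18 and below 0 in 16, with a median of 0.0093. At an unadjusted p under 0.05 there were 7 of 34 (20.6%, against 10.8% of all tested genes), of which 3 were higher with metformin (8.82%, against 6.03%), namely Hspbp1, an HSP70 exchange factor (log2 difference 0.15), Bag6, which guards exposed membrane segments (0.072), and Nudc, an HSP90-linked dynein factor (0.057). Lower at that level were 4 genes (11.8%, against 4.81%), the prefoldin subunits Pfdn2 (-0.12), Pfdn4 (-0.14) and Vbp1 (-0.14), which hand actin and tubulin to CCT, and Cacybp (-0.081), a binding partner of SIAH1. Of 13 other mitochondrial chaperones and proteases, all were tested, 0 passed the adjusted threshold (lowest 0.346), and 8 were above and 5 below 0. Dnaja3, a mitochondrial HSP40, was higher (0.083), and the AAA+ proteins Clpx (-0.14) and Yme1l1 (-0.12) were lower, at an unadjusted p under 0.05, which was 3 of 13 genes (23.1%, against 10.8% of all tested genes).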

How the data were processed

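RNA-seq was measured in 6 libraries, 3 control and 3 metformin, grouped by the treatment in the labels. The authors deposited FPKM per gene. The submitters' processing notes name HISAT2, DESeq2 and mm9 without versions, but all 42 member positions overlapped the GRCm38.p6 gene of that symbol and only 2 the mm9 (NCBIM37) gene. The counting tool, annotation and use of strand are not given in the sources used here, and the labels and the methods name different library kits. Log2(FPKM + 1) was tested for the 10661 genes averaging 1 FPKM or more, with limma 3.58.1 in R 4.3.3 (lmFit, eBayes with a trend, two-sided, Benjamini-Hochberg over all genes). Fold differences on this scale understate changes of low genes. Intervals are at 95%, and depth, 13.4 to 14.0 × 10⁶ fragments, was estimated from steps between low FPKM values. Libraries were compared for identical values and none was a duplicate (at most 1.48% of genes identical). Motifs were searched with Python 3.11.15 in RefSeq promoter windows. Per-library values are given for members with separate groups or an unadjusted p under 0.05, for Hsf1 and the inducible genes, and for members under 1 FPKM, plus, chosen after their values were seen, Hspa8, Hspa2 and Hspe1. The members, lists and rules were chosen with earlier results of these data known. Alternatives covered the pseudocount, filter, scaling, spread model, replicate block and leaving out each library.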

Additional observations from a re-analysis of the deposited data

How the results depend on the processing

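Over 14 alternative settings no member passed an adjusted p of 0.05 (lowest 0.151, Hsp90aa1). Over all genes 3 passed, and 7 without a filter on low values, when 22809 genes were tested. The count of members at an unadjusted p under 0.05 was 5 (13.5%, against 10.8% of all genes), and 3 without the trend in the spread model (8.11%, against 9.73%). With a library left out it was 1 to 4. It was lowest without control library 2 (2.70%, against 8.60% of all genes) and highest without control library 3 (10.8%, against 9.10%). The count without overlap was 11, 8 after quantile normalization or median centring (21.6%, against 17.1% and 17.3% of all genes), and 11 to 19 with a library left out (17 without control library 3, 45.9% against 27.2% of all genes, and 19 without metformin library 3, 51.4% against 27.7%), where fewer libraries separate more easily. The median log2 difference of cytosolic members was -0.0086, 0.011 with a mean of at least 10 FPKM, and -0.014 to 0.0079 with a library left out, and that of mitochondrial members -0.018 to 0.022. Of the 37 tested members 24 did not change sign in any setting. Among those with per-library values by rule, the sign turned for Hsf1 and Hsph1, and Hsp90ab1 was at 0 after quantile normalization. Hsf1 was at -0.024 without control library 3, -0.0031 without metformin library 1 and at most 0.061 with any left out. Hsph1 was at -0.020 to 0.0079, the latter without metformin library 1. The sign also turned in 1 or more settings for Stip1, Chordc1, Hspa8, Hspa14, Hsf2, Dnajb6, Cct3, Cct5, Clpp and Lonp1. That of Hspe1 turned under same-sum rescaling, quantile normalization and without control library 1, control library 3 or metformin library 1. Hspa1a, left out of the main test, was at -0.0094 in the fit without a filter. Its sum with Hspa1b, the higher gene of the pair, was at 0.091. The causes were not tested. With the replicate block, 4 members passed an unadjusted p of 0.05 (10.8%, against 9.65% of all genes). The adjusted p of Hsp90aa1 was then 0.399 (limma, Benjamini-Hochberg). Deviations of same-numbered libraries correlated at -0.032, 0.018 and 0.048, and those of differently numbered libraries at -0.050 to 0.030. With 3 libraries a group, such values cannot tell whether a number marks a shared culture or day, which the labels do not say. With 3 libraries a group and this depth, members of a few fragments allow no statement on change.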
